A study of Mus musculus with 21 samples.

Results

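The interferon-stimulated effector genes are 41 mouse genes. The products of many of them sense foreign nucleic acid, block virus replication or attack the vacuoles of intracellular microbes. The 41 genes were taken by symbol from a list, and each was read on its brightest probe set by mean level, among those assigned to it alone. Of the 41, 39 had such a probe set and 38 were bright enough to test, out of 18194 genes measured and 12156 tested. Isg15 and Ifi44 are not analysed here, and Oasl1 was measured but too dim to test.

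The study asked how the gene expression of fat cells develops over time in 2 models of insulin resistance. Mouse 3T3-L1 cells, an established preadipocyte line, were differentiated for 14 days and RNA was hybridised to 21 Affymetrix arrays. The 7 groups of 3 arrays, labelled as biological replicates, received the cytokine tumour necrosis factor alpha (TNF) during 2 h, 24 h or 6 d, or dexamethasone (Dex, a synthetic glucocorticoid) at 20 nM over those times, or stayed untreated as the control (0 h). The labels give neither the TNF dose nor a vehicle. They list no untreated group at 2 h, 24 h or 6 d. In the changes against control, and in the steps between times of the same treatment, treatment and time in culture therefore cannot be told apart. Arrays have no sequencing depth, and their number, 3 in each group, limits the precision.

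Interferons are secreted proteins made after a cell senses microbial nucleic acid or cytokine signals. Type I interferons such as interferon beta act through a receptor whose kinases activate STAT2, which joins IRF9 in a complex that binds the interferon-stimulated response element (ISRE), while interferon gamma acts at gamma-activated sites (GAS). TNF itself acts through NF-kB, which binds kB sites, and can raise IRF1 and interferon beta. Glucocorticoids bind their receptor and lower many inflammatory transcripts, in fat cells among others.

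The adipocyte label was checked against 10 markers, of which 8 were measured. Adipoq (adiponectin) averaged between 14.62 and 14.88 and Fabp4 (a fatty acid binding protein) between 14.86 and 14.95 on the log2 scale in the 7 groups, while Lep (leptin) lay under 5.34, the median of all values and the level taken here as near background. The log2 levels of the 8 summed to between 85.7 and 90.2 on the TNF 24 h arrays, against 96.3 to 96.7 in control. These sums were also below control at 2 h of TNF (92.51 to 94.04) and at 6 d of TNF (89.95 to 90.52 without replicate 2). At 2 h of Dex they were slightly below it (94.98 to 95.92), and those at 24 h and 6 d of Dex are given further on. In bulk RNA of this kind fewer cells of a type and less RNA per cell cannot be told apart. Of 10 preadipocyte and fibroblast markers 9 were measured and 8 lay above 5.34, with log2 levels summing to between 87.6 and 89.7 on the control arrays. Their sums overlapped that range at 2 h and 24 h of TNF and at 2 h of Dex, were above it at 6 d of TNF (91.7 to 93.4 without replicate 2), and were below it at 24 h (84.8 to 85.6) and 6 d (80.7 to 82.7) of Dex. Adgre1, Itgam, Ptprc, Fcgr1, Mrc1 and Tyrobp, defining markers of macrophages and leukocytes, lay under 5.34 in every group. The log2 levels of all 10 macrophage and leukocyte markers summed to between 49.5 and 50.6 at 2 h, 52.0 and 53.5 at 24 h and 51.2 and 51.5 at 6 d of TNF (without replicate 2), against 48.3 to 49.2 in control. Csf1r, a receptor of macrophages, lay above 5.34 in every group and was higher at 24 h of TNF by 0.51 ± 0.18 (log2, SE; adjusted p = 0.0403, limma). Lyz2 was higher at 2 h of TNF by 0.44 ± 0.13 (adjusted p = 0.0361, limma) above a control near background. Cd14 and Cd68, which are not restricted to leukocytes, were higher after 24 h of TNF, by 1.77 ± 0.20 and 1.57 ± 0.17. Cd14 was also higher at 6 d of TNF (2.51 without replicate 2) and of Dex (0.82). On TNF 6 d replicate 2 Cd14 stood at 6.89, against 6.55 to 6.62 in control. Of 3 measured markers of lymphoid and plasmacytoid dendritic cells 2 lay under 5.34 in every group, and Cd3e lay above it and was not called against control. The part of these shifts in the results was not tested.

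One array stood apart from the others. The difference between 3′ and 5′ probe sets of control transcripts, a sign of RNA quality, was 2.00 on the log2 scale on TNF 6 d replicate 2, against 0.0210 to 0.777 on the other 20 arrays. The spread of values on TNF 6 d replicate 2 was narrower (SD 2.04, against 2.44 to 2.51). The model across all genes therefore left TNF 6 d replicate 2 out, and TNF 6 d results are given without and with it.

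Promoter windows show the letters upstream of members that moved far. They are the 300 bases that end just past the gene start in RefSeq, build GRCm38.p6, for the members that rose most at 24 h and at 2 h of TNF and fell most at 24 h of Dex, among those with a window in the table used. Zbp1, Parp14 and Rtp4 have none there. Capitals mark an ISRE core, GAAANNGAAA or its reverse TTTCNNTTTC, or a kB core, GGGANNTTCC or its reverse GGAANNTCCC. Ifit3 (chr19:34583279-34583578, plus strand) and Ifit1 (chr19:34640639-34640938, plus strand) encode proteins that bind foreign RNA, and both windows hold 2 ISRE cores.
Ifit3 promoter: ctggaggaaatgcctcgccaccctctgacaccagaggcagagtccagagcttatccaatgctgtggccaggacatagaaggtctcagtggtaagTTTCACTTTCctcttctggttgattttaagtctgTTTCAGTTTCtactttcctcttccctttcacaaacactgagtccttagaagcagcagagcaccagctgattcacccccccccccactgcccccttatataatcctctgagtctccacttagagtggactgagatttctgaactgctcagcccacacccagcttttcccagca
Ifit1 promoter: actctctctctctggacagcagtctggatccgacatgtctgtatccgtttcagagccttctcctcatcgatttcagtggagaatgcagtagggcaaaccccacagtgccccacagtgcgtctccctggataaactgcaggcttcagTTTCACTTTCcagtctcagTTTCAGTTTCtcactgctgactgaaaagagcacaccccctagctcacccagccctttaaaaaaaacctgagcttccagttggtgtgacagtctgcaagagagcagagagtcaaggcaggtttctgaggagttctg
Rsad2 (chr12:26456403-26456702, minus strand) encodes viperin, an antiviral enzyme, and its window holds 1 ISRE core. Gbp2 (chr3:142620413-142620712, plus strand) encodes a guanylate-binding protein, and its window holds an ISRE core and, closer to the start, a kB core.
Rsad2 promoter: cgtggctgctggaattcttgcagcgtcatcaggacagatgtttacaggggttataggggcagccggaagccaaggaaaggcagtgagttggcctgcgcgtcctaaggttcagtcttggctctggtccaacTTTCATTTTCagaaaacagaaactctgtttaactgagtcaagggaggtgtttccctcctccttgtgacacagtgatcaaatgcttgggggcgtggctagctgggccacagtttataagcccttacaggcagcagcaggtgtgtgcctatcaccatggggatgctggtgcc
Gbp2 promoter: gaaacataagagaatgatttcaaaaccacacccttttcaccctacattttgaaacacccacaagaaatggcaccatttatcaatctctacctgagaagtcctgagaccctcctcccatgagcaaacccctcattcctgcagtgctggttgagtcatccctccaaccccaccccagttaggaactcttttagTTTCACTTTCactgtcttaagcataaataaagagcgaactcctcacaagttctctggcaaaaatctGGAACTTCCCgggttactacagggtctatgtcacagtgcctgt
Oasl2 (chr5:114896684-114896983, plus strand), of the oligoadenylate synthetase family, and Ifi47 (chr11:49076337-49076636, plus strand), an immunity-related GTPase, had large changes under TNF as well. Neither window holds any of the cores searched, which says only that these letters are not in it.
Oasl2 promoter: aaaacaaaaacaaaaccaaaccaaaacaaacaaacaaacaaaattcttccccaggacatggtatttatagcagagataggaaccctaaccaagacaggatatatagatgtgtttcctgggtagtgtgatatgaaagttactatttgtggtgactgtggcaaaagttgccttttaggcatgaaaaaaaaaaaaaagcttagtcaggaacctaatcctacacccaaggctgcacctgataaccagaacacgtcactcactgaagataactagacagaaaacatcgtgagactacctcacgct
Ifi47 promoter: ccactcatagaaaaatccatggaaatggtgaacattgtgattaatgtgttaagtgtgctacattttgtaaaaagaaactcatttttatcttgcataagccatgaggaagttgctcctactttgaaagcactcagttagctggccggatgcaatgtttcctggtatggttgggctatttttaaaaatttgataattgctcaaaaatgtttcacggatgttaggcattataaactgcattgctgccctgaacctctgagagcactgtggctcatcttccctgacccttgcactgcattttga

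A promoter window was given for 31 of the 41 genes. An ISRE core stood in a window of 15 of these 31 genes (48.4%), against 3.99% of all 27025 genes with a window. A GAS core, TTCNNNGAA on either strand, stood in 10 of 31 (32.3%), against 9.55% of all genes. A kB core stood in 3 of 31 (9.68%), against 1.63%. These are counts of letters and show no binding. Among the 12 members with a window that rose at 2 h of TNF, 8 had an ISRE core, and among the 16 that were not called at 2 h, 6 had one. Several members lie next to each other in the genome, namely Rsad2 and Cmpk2, Parp14, Dtx3l and Parp9, Ifit2 and Ifit3, Gbp7 and Gbp3, Oasl2 and Oasl1, and Ifitm1 and Ifitm3, so they are not independent points.

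Nearly the whole list rose under TNF, part of it at 2 h and nearly all of it at 24 h. At 2 h of TNF 16 of 38 tested members rose against control and none fell, where 6.59% of all tested genes rose and 4.08% fell. With TNF 6 d replicate 2 in the model, which widens the shared estimate of the spread, 10 rose and none fell at 2 h (2.95% and 0.872% of all tested genes). Those 10 all rose at least 2-fold, so the 2 h calls of Ifih1, Ifitm3, Samhd1, Iigp1, Parp9 and Ifi35 were lost. Counts by role further on are from the fit without that array unless stated. At 24 h 37 of 38 rose and none fell (13.2% and 12.4%), and 35 and none with replicate 2 (5.41% and 3.27%). At 6 d 30 of 38 rose and none fell in the fit without TNF 6 d replicate 2 (10.5% and 9.93%), and 16 rose and none fell with it (4.52% and 10.7%). The median change over the 39 measured members was 0.56 at 2 h, 2.71 at 24 h and 1.01 at 6 d on the log2 scale, against -0.04, -0.03 and -0.05 over all measured genes. With replicate 2 the 6 d median was 0.82. Calls are from limma with Benjamini-Hochberg adjusted p under 0.05 over all tested genes. An exact permutation test of 3 arrays against 3 cannot go below a two-sided p of 0.1, so single genes rest on that model.

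Under Dex more members fell than rose at 24 h and 6 d. At 2 h of Dex 4 members rose and 1 fell (4.29% and 2.83% of all tested genes), at 24 h 3 rose and 18 fell (6.39% and 6.79%), and at 6 d 3 rose and 13 fell (10.4% and 13.5%). The median change of the members was -0.06, -0.45 and -0.25 in that order, against -0.03, -0.02 and -0.03 over all measured genes. The changes under TNF and those under Dex were each taken against the same 3 control arrays. With TNF 6 d replicate 2 in the model the Dex changes are the same, since that array is in neither group, but the shared estimate of the spread is wider. In that fit 1 member rose and none fell at 2 h of Dex (1.66% and 0.814% of all tested genes), 1 rose and 4 fell at 24 h (2.06% and 2.11%), and 1 rose and 2 fell at 6 d (3.22% and 5.08%). The 1 that rose was Ifi207 each time, and those that fell were Zbp1 and Ifit3 at both times and Ifit1 and Gbp7 at 24 h. At 6 d 2 of 38 is close to the share of all genes that fell. The adipocyte marker sums were 96.3 to 97.1 at 24 h and 93.6 to 95.6 at 6 d of Dex, against 96.3 to 96.7 in control, and with the lower fibroblast marker sums above, their part in these falls was not tested.

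**Figure D1:**
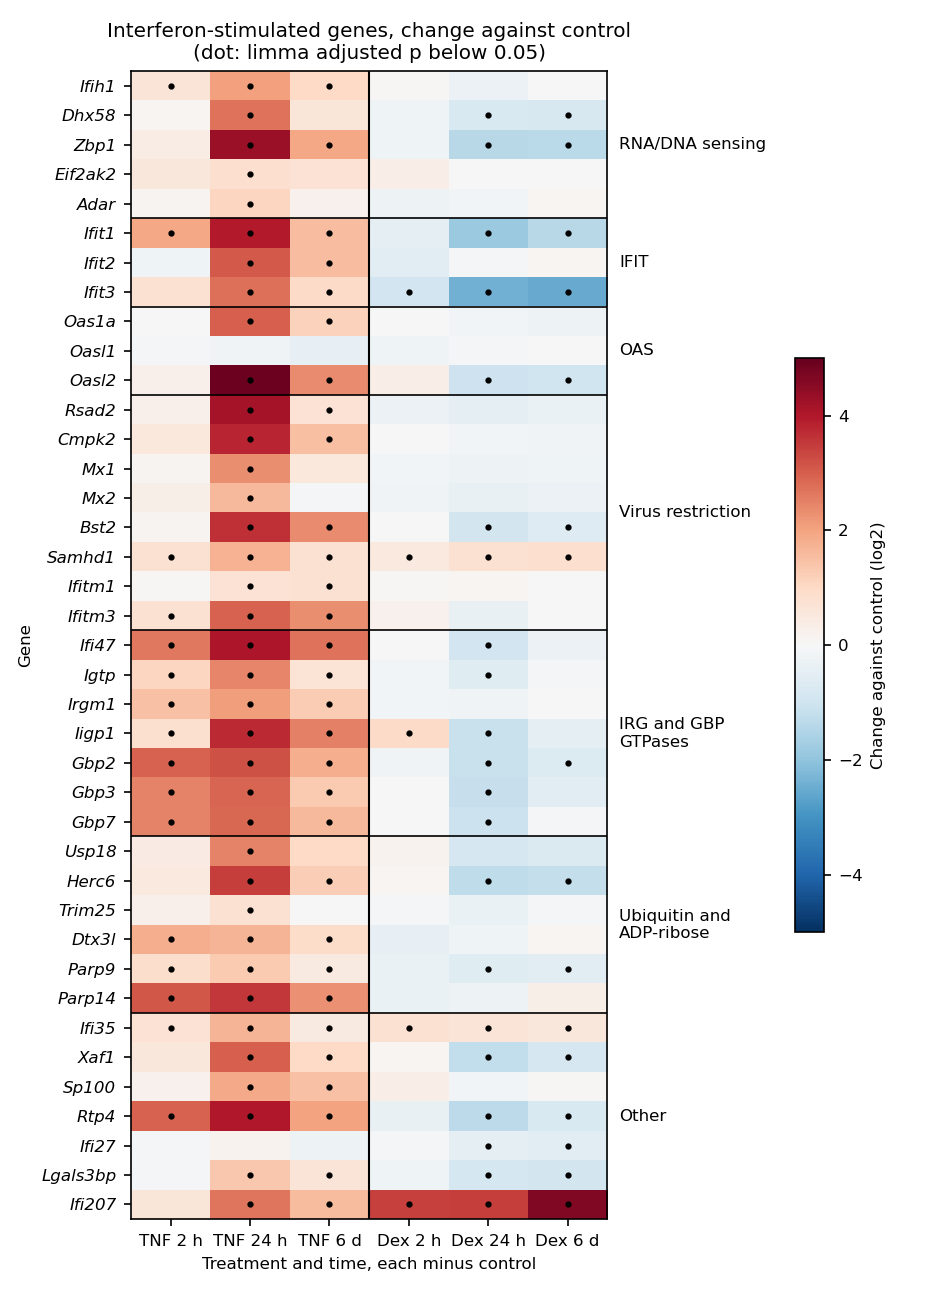
Change of the 39 measured members against control on the log2 scale (colour), in 3 TNF and 3 Dex groups, with TNF 6 d replicate 2 left out; a dot marks a limma adjusted p under 0.05. The TNF 24 h column is the most uniform, with 37 members higher, and 18 members are lower in the Dex 24 h column.

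Genes of RNA and DNA sensing, a role that here includes the RNA editor Adar, come first in the pathway. All 5 rose after 24 h of TNF, and only Ifih1, the cytosolic sensor of long double-stranded RNA, had already risen at 2 h. Zbp1, a sensor of Z-form nucleic acid that can start necroptosis, lay at 10.21, 10.23 and 10.77 on the 3 TNF 24 h arrays, against 6.02, 6.29 and 5.97 in control. These groups did not overlap, and the change was 4.31 ± 0.20 (log2, SE; 19.8-fold; limma adjusted p = 1.8e-12). At 2 h of TNF the level of Zbp1 was 6.66, 6.12 and 6.68, which overlapped the control range (0.39 ± 0.20, adjusted p = 0.288, limma). Dhx58, a regulator of RNA sensing, was higher by 2.71 at 24 h, and Ifih1 by 2.04. Adar, which edits adenosine in double-stranded RNA, changed by 1.06. Eif2ak2, the kinase PKR that stops translation on double-stranded RNA, changed by 0.85 (adjusted p = 0.0273, limma), but its TNF 24 h values of 10.08, 9.71 and 9.20 overlapped the control values of 9.38, 9.21 and 7.86.

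The IFIT proteins, which bind viral RNA and hinder its translation, all rose at 24 h of TNF. Ifit1 stood at 8.93, 8.61 and 9.06 at 2 h of TNF and at 10.88, 10.96 and 10.90 at 24 h, against 7.36, 7.22 and 6.23 in control. Both TNF groups lay above every control array. The change was 1.93 ± 0.28 at 2 h (adjusted p = 5.01e-05, limma) and 3.98 ± 0.28 at 24 h (15.8-fold, adjusted p = 1.19e-09, limma). Ifit2 did not share the early step, with a change of -0.20 at 2 h that was not called, and rose by 3.08 at 24 h. Ifit3 rose by 2.77 at 24 h, and its 2 h change of 0.78 was not called (adjusted p = 0.0881, limma).

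Among the oligoadenylate synthetase family, Oasl2 had the largest change of any member. It lay at 11.08, 10.89 and 10.32 at 24 h of TNF, against 5.59, 6.08 and 5.97 in control. The gap between the groups was more than 4 log2 units, and the change was 4.88 ± 0.29 (29.5-fold, adjusted p = 6.67e-11, limma). At 2 h the 3 TNF arrays stood at 6.43, 5.39 and 6.54, on both sides of the control values. Oas1a, whose product makes oligoadenylates that activate RNase L, changed by 2.99 at 24 h and by -0.03 at 2 h. Oasl1, a relative without that enzyme activity, stayed between 4.84 and 5.36 on the control, TNF 2 h and TNF 24 h arrays, near background.

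Genes for restriction factors moved late as well, with 2 of 8 higher at 2 h of TNF and 8 of 8 at 24 h. Neither of the 2 h calls was kept with TNF 6 d replicate 2 in the model. Rsad2 stood at 10.61, 10.67 and 10.10 at 24 h of TNF, against 6.45, 6.40 and 6.04 in control (4.17 ± 0.17, 17.9-fold, adjusted p = 3.15e-13, limma). Its 2 h levels of 6.68, 6.23 and 6.73 overlapped control. Cmpk2, the mitochondrial nucleotide kinase encoded beside Rsad2, rose by 3.81 at 24 h, and since its control mean of 4.02 was near background this is a lower limit. Bst2 (tetherin, which holds budding virus at the membrane) lay at 12.44, 12.33 and 12.61 at 24 h of TNF, against 8.76, 9.06 and 8.61 in control, a change of 3.65 ± 0.17 (12.5-fold, adjusted p = 2.27e-12, limma). Mx1 and Mx2, dynamin-like antiviral GTPases, rose by 2.33 and 1.60 at 24 h, the value for Mx1 being a lower limit from a dim control. Ifitm3, which hinders fusion of virus with endosomes, rose by 0.75 at 2 h and 2.95 at 24 h. Ifitm1, its neighbour, rose by only 0.71 at 24 h, from a control near background. Samhd1, which breaks down deoxynucleotides, rose by 0.77 at 2 h and 1.76 at 24 h.

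The GTPases of the IRG and GBP families, which attack the vacuoles of intracellular microbes, were the early group: 7 of 7 rose at 2 h of TNF. Gbp2 stood at 12.99, 13.12 and 13.15 at 2 h and at 13.28, 13.27 and 13.34 at 24 h, against 10.04, 10.14 and 10.21 in control. Its change was 2.95 ± 0.11 at 2 h (7.75-fold, adjusted p = 5.53e-14, limma) and 3.17 at 24 h. Gbp3 lay at 11.86, 11.92 and 11.89 at 2 h of TNF, against 9.38, 9.55 and 9.32 in control (2.48 ± 0.21, adjusted p = 2.61e-08, limma). Gbp7 stood at 11.34, 11.97 and 11.73 at 2 h of TNF, against 9.04, 9.16 and 9.37 in control (2.49 ± 0.19, adjusted p = 6.78e-09, limma). None of the 3 Gbp genes overlapped control at 2 h.

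Ifi47 combined an early and a later step, at 9.71, 9.86 and 10.49 at 2 h of TNF and 11.66, 11.64 and 11.01 at 24 h, against 7.28, 7.32 and 7.54 in control. The changes were 2.64 ± 0.19 and 4.06 ± 0.19 (adjusted p = 2.51e-09 and 2.15e-12, limma). Iigp1, a GTPase that coats parasite vacuoles, rose by 0.79 at 2 h and 3.73 at 24 h. Its change at 2 h of Dex was 0.96. Of the 7 GTPases 6 were higher under TNF than under Dex at 2 h, and Iigp1 was not (-0.17). Igtp rose by 1.07 and 2.43, and Irgm1, which regulates the other IRG proteins, by 1.46 and 2.08. GBP and IRG genes come in families of similar sequence, and cross-hybridisation between members was not tested.

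Of the genes acting on ubiquitin-like tags and ADP-ribose, 3 of 6 rose at 2 h and 6 of 6 at 24 h of TNF. Parp14, an ADP-ribosyltransferase, lay at 9.16, 9.86 and 9.45 at 2 h of TNF, against 6.25, 6.18 and 6.70 in control. That change, 3.11 ± 0.19, was the largest of the list at 2 h (8.65-fold, adjusted p = 1.89e-10, limma). Its neighbours Dtx3l and Parp9, whose proteins form a ubiquitin ligase complex, rose by 1.83 and 0.88 at 2 h. Herc6, the mouse ligase that attaches ISG15, and Usp18, which removes it, were not called at 2 h (0.47 and 0.40) and rose by 3.44 and 2.49 at 24 h. Trim25, a ubiquitin ligase of the RNA sensing pathway, rose by 0.78 at 24 h.

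Among the remaining members, Rtp4, a protein of the receptor transporter family that dampens interferon responses in mice, stood at 11.68, 11.14 and 11.45 at 2 h and 12.61, 12.68 and 12.16 at 24 h of TNF, against 8.65, 8.85 and 7.92 in control. The changes were 2.95 ± 0.27 (adjusted p = 6.96e-08, limma) and 4.01 ± 0.27 (adjusted p = 4.15e-10, limma). Xaf1, a partner of the apoptosis inhibitor XIAP, rose by 2.99 at 24 h, Sp100, a nuclear body protein, by 1.90 above a control near background, and Lgals3bp, a secreted glycoprotein, by 1.35. Ifi35 rose by 0.71 at 2 h and 1.71 at 24 h. Ifi27, a mitochondrial protein, was the only tested member not called higher at any TNF time: it lay between 12.86 and 13.34 on the 2 h and 24 h TNF arrays, against 12.93 to 13.25 in control.

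**Figure D2:**
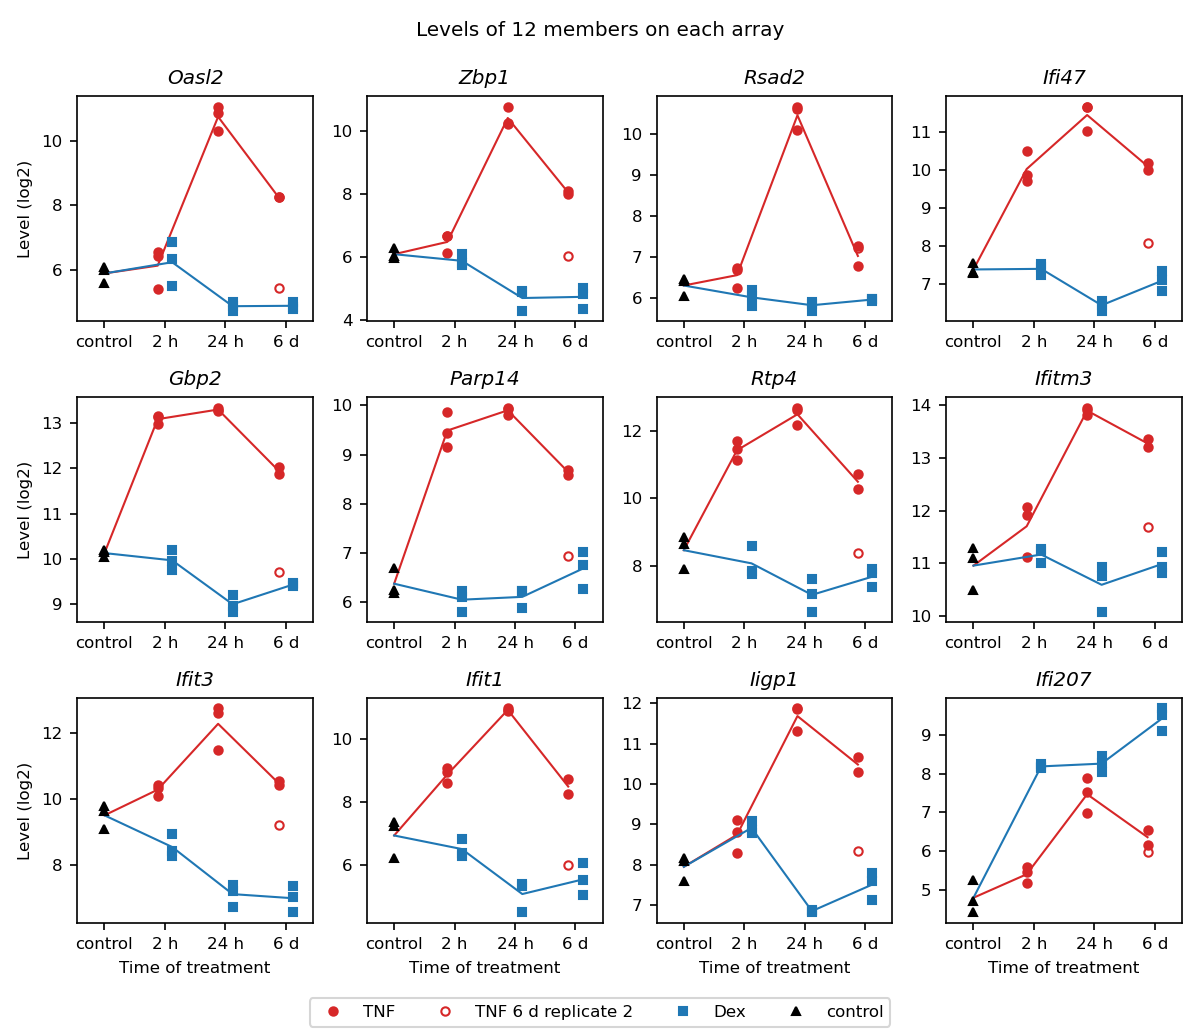
Log2 level on each array of 12 members, by time of treatment with TNF (circles) or Dex (squares) beside control (triangles); lines join group means, and the open circle is TNF 6 d replicate 2, left out of the means. Gbp2 and Parp14 are near their peak at 2 h of TNF, Oasl2, Zbp1 and Rsad2 are not, and Ifi207 lies higher under Dex than under TNF at each time.

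The early and late patterns were compared directly within TNF. At 24 h against 2 h of TNF, 31 of 38 members rose and none fell, where 11.9% of all tested genes rose and 10.1% fell. The largest steps were those of Oasl2 (4.64 ± 0.29, adjusted p = 3.7e-10), Zbp1 (3.92 ± 0.20, adjusted p = 2.6e-11), Rsad2 (3.91 ± 0.17, adjusted p = 4.54e-12) and Bst2 (3.52 ± 0.17, adjusted p = 1.34e-11), by limma. Without that array in the model the step was not called for Gbp2 (0.21), Gbp3 (0.44), Gbp7 (0.40), Parp14 (0.41), Dtx3l (-0.13), Eif2ak2 (0.28) and Ifi27 (0.24). Of those 7, the Gbp genes, Parp14 and Dtx3l are members that had already risen at 2 h. By role the median step was 3.02 in the oligoadenylate family (3 genes, from -0.13 in the untested Oasl1 to 4.64) and 2.19 in the restriction factors (0.67 to 3.91). It was 2.05 in the IFIT genes, 1.41 in the RNA and DNA sensing genes and 1.42 in the remaining members. In the IRG and GBP genes it was 0.62 (0.21 to 2.94), and in the ubiquitin and ADP-ribose genes 0.49 (-0.13 to 2.97). These ranges overlap, and the last 2 roles also hold late steps, as in Iigp1 (2.94), Herc6 (2.97) and Usp18 (2.09).

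By 6 d of TNF most members were lower than at 24 h. Set against 24 h, 33 of 38 members fell and none rose (5.09% of all tested genes fell and 4.1% rose), without TNF 6 d replicate 2, and 31 fell and none rose with it (4.78% and 1.21%). Rsad2 stood at 7.27 and 6.76 on the 2 arrays kept and at 7.22 on replicate 2, and its step was -3.44 ± 0.19 (adjusted p = 8.81e-10, limma; -3.38 with replicate 2). Oasl2 lay at 8.26 and 8.25 on the kept arrays and at 5.42 on replicate 2, a step of -2.51 ± 0.32 (adjusted p = 2.42e-05, limma; -3.45 with it). The steps of Ifit1 and Zbp1 were -2.43 and -2.36, and -3.26 and -3.02 with replicate 2. Ifitm3 (-0.62), Sp100 (-0.42), Ifi27 (-0.44), Eif2ak2 (-0.11) and Ifitm1 (0.06) were not called.

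Against control, the highest members at 6 d of TNF belonged to several roles. Ifi47 averaged 10.09 ± 0.13 (SD, n = 2) on the kept arrays and stood at 8.07 on replicate 2, against 7.28 to 7.54 in control, a change of 2.71 ± 0.22 (6.56-fold, adjusted p = 2.13e-08, limma) and of 2.04 with replicate 2 (adjusted p = 0.00189, limma). Iigp1 had 10.66 and 10.31, and 8.35 on replicate 2, against 8.18, 8.09 and 7.59 in control, a change of 2.53 ± 0.24 (1.82 with replicate 2). All 3 TNF arrays of both genes lay above control. Bst2 changed by 2.35 ± 0.19 (1.71 with replicate 2), Ifitm3 by 2.33 ± 0.26 (1.80) and Parp14 by 2.27 ± 0.22 (1.70), and these 3 were called in both fits. Oasl2 changed by 2.38 ± 0.32 (adjusted p = 1.82e-05, limma), and by 1.43 with replicate 2, where it was not called (adjusted p = 0.077, limma); that array lies below the control range. Of the 38 tested members, 8 were not called at 6 d without replicate 2: Dhx58, Eif2ak2, Adar, Mx1, Mx2, Usp18, Trim25 and Ifi27. In the same fit, over the 3 TNF times, 16 members were higher at each, 14 at 2 of them, 7 at 1 and 2 at none, these last being Ifi27 and the untested Oasl1.

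Under Dex 18 members were lower at 24 h and 13 at 6 d. The IFIT genes led: Ifit3 lay at 6.73, 7.22 and 7.40 at 24 h and at 6.56, 7.37 and 7.04 at 6 d of Dex, against 9.64, 9.77 and 9.08 in control. No Dex array at these times overlapped control, and the changes were -2.38 ± 0.28 (5.22-fold lower, adjusted p = 3.41e-06, limma) and -2.51 ± 0.28 (5.69-fold lower, adjusted p = 8.4e-07, limma). At 2 h of Dex its values of 8.28, 8.93 and 8.41 were already below control (-0.96 ± 0.28, adjusted p = 0.0395, limma), the only member called lower at that time. That call was lost with TNF 6 d replicate 2 in the model (adjusted p = 0.331, limma), with median centring (0.0539), and without any one of control replicates 1 and 2, Dex 2 h replicates 1 and 3, TNF 2 h replicate 3 and TNF 6 d replicates 1 and 3 (0.0505 to 0.184). Ifit1 stood at 4.50, 5.35 and 5.39 at 24 h of Dex, against 7.36, 7.22 and 6.23 in control (-1.86 ± 0.28, adjusted p = 9.42e-05, limma), a mean near background, so the change is a lower limit. At 6 d it was lower by 1.39. Ifit2 was not called at any Dex time.

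Zbp1 was listed at 4.31, 4.89 and 4.92 at 24 h and 4.83, 4.37 and 5.04 at 6 d of Dex, against 6.02, 6.29 and 5.97 in control. Its changes of -1.39 and -1.35 (adjusted p = 5.58e-05 and 3.96e-05, limma) ended near background and are lower limits in size. Herc6 had 5.70, 6.10 and 5.72 at 24 h of Dex, against 7.05, 7.26 and 7.03 in control, a change of -1.27 ± 0.16 (adjusted p = 1.29e-05, limma), and -1.20 at 6 d. Oasl2 changed by -1.02 and -1.01, again ending near background. Rtp4 (-1.32 and -0.78), Xaf1 (-1.22 and -0.84), Bst2 (-0.90 and -0.65), Lgals3bp (-0.88 and -0.90), Dhx58 (-0.78 and -0.80), Parp9 (-0.62 and -0.57), Gbp2 (-1.13 and -0.69) and Ifi27 (-0.45 and -0.56) were lower at both 24 h and 6 d. The Dex means of Dhx58 lay just under 5.34.

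In the IRG and GBP group 6 of 7 members fell at 24 h of Dex and 1 of 7 at 6 d. Iigp1 was the one that went both ways: it stood at 8.79, 9.09 and 8.86 at 2 h, 6.86, 6.89 and 6.82 at 24 h and 7.13, 7.61 and 7.80 at 6 d of Dex, against 8.18, 8.09 and 7.59 in control. It was higher at 2 h (0.96 ± 0.21, adjusted p = 0.0048, limma), lower at 24 h (-1.10 ± 0.21, adjusted p = 0.000925, limma) and not called at 6 d (-0.44). Gbp3 (-1.15), Gbp7 (-1.07), Ifi47 (-0.94) and Igtp (-0.62) were lower at 24 h and not called at 6 d, where they changed by -0.53, -0.08, -0.30 and -0.06. Irgm1 was not called at any Dex time.

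The steps within Dex were tested as well. At 24 h against 2 h of Dex 16 members fell and none rose (7.26% of all tested genes fell and 6.24% rose). The largest falls were in Iigp1 (-2.06 ± 0.21, adjusted p = 8.45e-07), Ifit3 (-1.42 ± 0.28, adjusted p = 0.00113), Ifit1 (-1.42 ± 0.28, adjusted p = 0.0014) and Herc6 (-1.38 ± 0.16, adjusted p = 5.88e-06), by limma. At 6 d against 24 h 4 rose and none fell (1.12% of all tested genes rose and 3.38% fell): Ifi207 (1.17 ± 0.22), Gbp7 (0.99 ± 0.19), Igtp (0.56 ± 0.14) and Gbp2 (0.43 ± 0.11). That last count was 2 without Dex 24 h replicate 1 or 3, or without Dex 6 d replicate 2 or 3, and 1, Ifi207, with TNF 6 d replicate 2 in the model (0.247% of all tested genes rose and 0.436% fell). With that array 3 members, Iigp1, Ifit3 and Gbp7, were lower at 24 h than at 2 h of Dex and none was higher (2.05% and 1.57% of all tested genes).

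A few members rose under Dex, and Ifi207 did so by far more than the others. Of 38 tested members 4 rose at 2 h, 3 at 24 h and 3 at 6 d of Dex. Of all tested genes 4.29%, 6.39% and 10.4% rose in that order. The counts at 24 h and 6 d are close to or below those shares. Ifi207, of the mouse Ifi200 family of proteins that bind DNA, stood at 8.19, 8.15 and 8.24 at 2 h, 8.28, 8.45 and 8.06 at 24 h and 9.52, 9.69 and 9.10 at 6 d of Dex, against 4.41, 4.70 and 5.26 in control. No Dex array came within 2 log2 units of control. The changes were 3.40 ± 0.22, 3.48 ± 0.22 and 4.65 ± 0.22 (adjusted p = 8e-10, 5.2e-10 and 3.64e-12, limma), and they are lower limits because the control mean was near background. It was read on 1 probe set, and the Ifi200 family holds genes of similar sequence, whose cross-hybridisation was not tested. Under TNF it was not called at 2 h (0.61) and rose by 2.68 at 24 h and 1.57 at 6 d (1.44 with replicate 2).

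Samhd1 and Ifi35 were called higher at all 3 Dex times and at all 3 TNF times in the fit without TNF 6 d replicate 2. Samhd1 stood at 8.91, 9.24 and 9.30 at 2 h, 9.34, 9.38 and 9.48 at 24 h and 9.45, 9.39 and 9.63 at 6 d of Dex, against 8.52, 8.52 and 8.90 in control. Its changes were 0.50, 0.75 and 0.84 (adjusted p = 0.0114, 0.000153 and 2.33e-05, limma). Of the other probe sets of Samhd1 that were above background, 1 gave 0.52 and 1 gave -0.04 at 2 h of Dex. Ifi35 lay at 11.23, 11.46 and 11.07 at 2 h of Dex, against 10.50, 10.52 and 10.46 in control, a change of 0.76 ± 0.09 (adjusted p = 6.53e-06, limma), followed by 0.63 and 0.58 at 24 h and 6 d. With replicate 2 in the model both genes were called at 24 h of TNF, neither was called at 2 h of TNF or at any Dex time, and at 6 d of TNF Samhd1 changed by 0.12 (adjusted p = 0.802, limma), against 0.77 without that array, and Ifi35 by 0.94 (adjusted p = 0.0213, limma), against 0.46. The count of 5 called members at 2 h of Dex was 3 without control replicate 1, control replicate 2 or Dex 2 h replicate 3.

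TNF and Dex were then set against each other at the same time. At 2 h 14 members were higher under TNF than under Dex and 1 was lower (7.63% and 7.13% of all tested genes), at 24 h 37 were higher and 1 lower (16.1% and 16.9%), and at 6 d 30 were higher and 1 lower without TNF 6 d replicate 2 (15.8% and 14.4%), and 22 and 1 with it (7.81% and 15.9%). The lower one was Ifi207 each time, at -2.80 ± 0.22, -0.79 ± 0.22 and -3.08 ± 0.25 (adjusted p = 5.41e-09, 0.0084 and 6.95e-09, limma), and at -3.21 at 6 d with replicate 2. At 2 h the largest differences were in Parp14 (3.44 ± 0.19), Rtp4 (3.33 ± 0.27), Gbp2 (3.11 ± 0.11) and Ifi47 (2.62 ± 0.19). At 24 h they were in Oasl2 (5.90 ± 0.29, 59.9-fold), Ifit1 (5.83 ± 0.28, 57.0-fold), Zbp1 (5.70 ± 0.20, 51.8-fold) and Rtp4 (5.32 ± 0.27, 40.1-fold), and the first 3 of these have a Dex mean near background, so they are lower limits. At 6 d they were in Ifit3 (3.48 ± 0.31), Oasl2 (3.38 ± 0.32), Zbp1 (3.30 ± 0.23) and Ifi47 (3.01 ± 0.22), and with replicate 2 these were 3.06, 2.44, 2.64 and 2.33. The values of Oasl2 and Zbp1 are again lower limits.

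**Figure D3:**
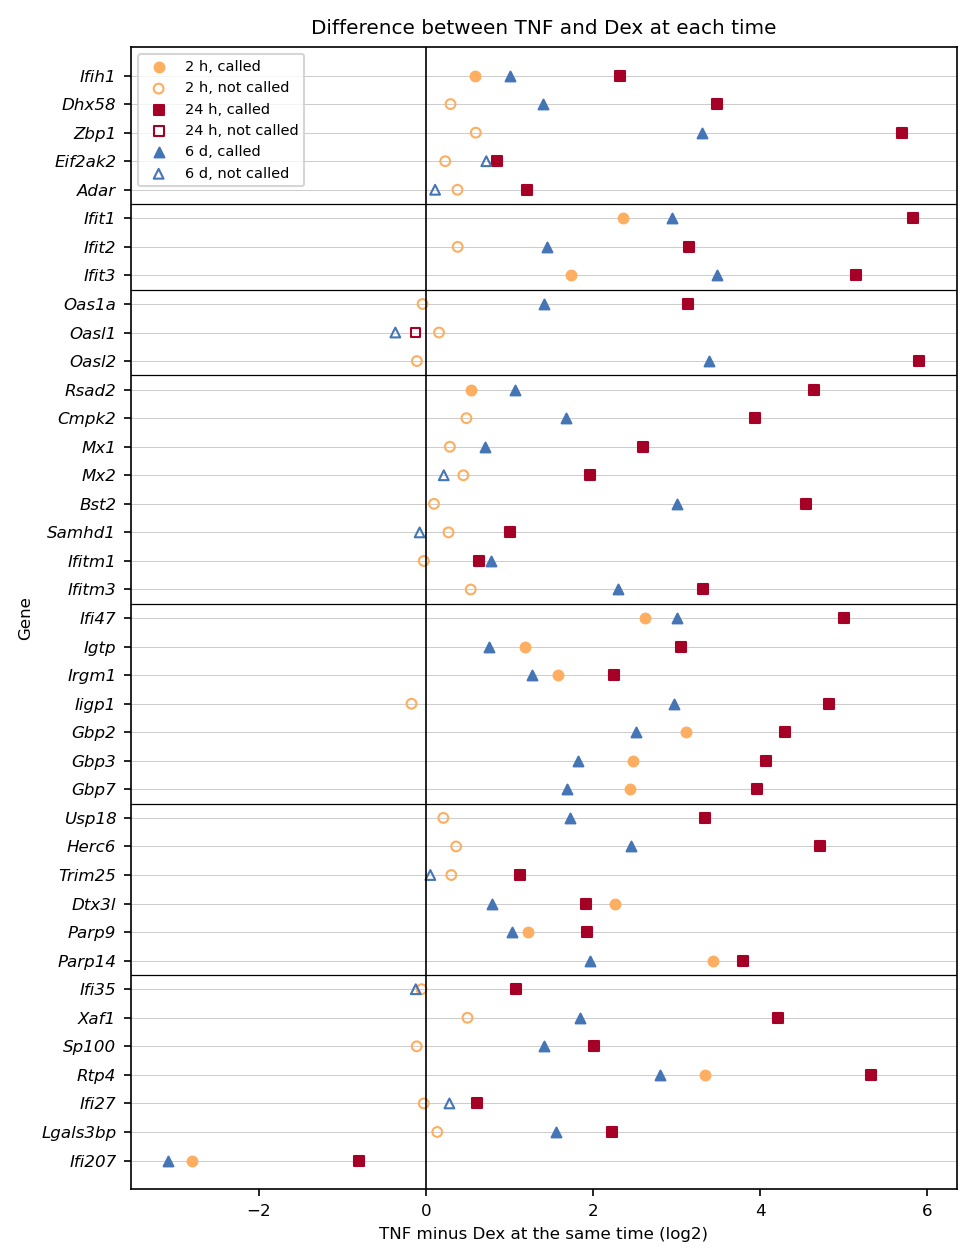
TNF minus Dex at the same time for the 39 measured members on the log2 scale, at 2 h (circles), 24 h (squares) and 6 d (triangles, TNF 6 d replicate 2 left out); filled symbols have a limma adjusted p under 0.05. At 24 h 37 members lie right of 0, and Ifi207 lies left of 0 at each time.

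Other genes of the interferon pathway were read from a list of 39, of which 35 were measured and 30 tested. Without TNF 6 d replicate 2, 17 were higher and 1 lower at 2 h of TNF (6.59% and 4.08% of all tested genes), 20 higher and none lower at 24 h (13.2% and 12.4%), and 13 higher and none lower at 6 d (10.5% and 9.93%). Under Dex 4 were higher and 5 lower at 2 h (4.29% and 2.83%), 1 and 1 at 24 h (6.39% and 6.79%), and 5 and 3 at 6 d (10.4% and 13.5%). At 24 h of Dex the count each way was no higher than those shares of the 30. With replicate 2 in the model, 11, 16 and 6 were higher and none lower at 2 h, 24 h and 6 d of TNF (2.95%, 5.41% and 4.52% of all tested genes were higher). In that fit 2 were higher and 1 lower at 2 h of Dex (1.66% and 0.814% of all tested genes). At 24 h of Dex 1 was higher and 0 lower (2.06% and 2.11%), and at 6 d 1 and 1 (3.22% and 5.08%). The counts at 24 h and 6 d are close to those shares of the 30.

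Among the ligands, Ifnb1, which encodes interferon beta, stood at 6.51, 6.27 and 5.89 at 2 h of TNF, against 5.62, 5.55 and 5.25 in control. All 3 TNF arrays lay above control, and the change was 0.75 ± 0.14 (1.68-fold, adjusted p = 0.000662, limma). At 24 h of TNF it was back at 5.48, 5.38 and 5.21, within or near the control range (-0.12). Its control mean of 5.48 lies close to the background level. Ifng, Ifna2 and Ifna4 were too dim to test.

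All 4 tested receptor genes were higher at 2 h and 24 h of TNF, and 1 of them, Ifngr1, was higher at each Dex time. Ifnar1, a chain of the type I interferon receptor, stood at 10.10, 10.11 and 9.95 at 2 h of TNF, against 8.95, 8.95 and 9.14 in control. Its changes were 1.04, 0.56 and 0.37 under TNF, and those of Ifnar2, the other chain, were 0.53, 1.26 and 0.44. At 6 d with replicate 2 neither was called (-0.12 and -0.03). Ifnar2 was lower at 6 d of Dex (-0.37, adjusted p = 0.0315, limma). With replicate 2 in the model Ifnar2 was not called at 2 h of TNF or 6 d of Dex, and Ifnar1 was not called at 24 h of TNF. Ifngr1, the ligand-binding chain of the interferon gamma receptor, stood at 11.70, 11.80 and 11.82 at 2 h of Dex, against 10.37, 10.34 and 10.36 in control, and changed by 1.42, 1.55 and 1.28 at 2 h, 24 h and 6 d of Dex (adjusted p = 1.09e-07, 3.12e-08 and 2.49e-07, limma). Under TNF its changes were 0.88 and 0.87 at 2 h and 24 h, and 0.22 at 6 d (-0.14 with replicate 2), which was not called in either fit. Ifngr2, the signalling chain, rose by 1.78, 1.48 and 1.44 under TNF (0.94 at 6 d with replicate 2), and was not called under Dex.

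Transcription factors of the pathway had distinct times. Irf1, which binds ISRE-like sites and is itself a target of NF-kB, stood at 13.82, 13.92 and 13.88 at 2 h of TNF, against 10.21, 10.10 and 10.46 in control (3.61 ± 0.10, 12.2-fold, adjusted p = 7.08e-16, limma). It was higher by 1.64 at 24 h and by 0.42 at 6 d of TNF, and by 0.13 at 6 d with replicate 2, which was not called. At 2 h of Dex Irf1 stood at 8.25, 8.38 and 8.43, lower than control by 1.91 ± 0.10 on the log2 scale (adjusted p = 6.04e-11, limma), and it was not called at 24 h and 6 d of Dex, at -0.17 and -0.13. Stat2, a signal carrier of type I interferon, rose by 1.09, 1.44 and 0.93 under TNF (0.78 at 6 d with replicate 2) and was lower at 6 d of Dex (-0.62). Irf9, which binds DNA together with STAT2, and Irf7, an amplifier of interferon production, were not called at 2 h of TNF (0.16 and -0.18) and rose by 1.42 and 1.51 at 24 h. At 6 d Irf9 was higher by 0.79 (0.53 with replicate 2, not called) and Irf7 was not called (-0.13, and -0.49 with replicate 2).

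Genes that lead to interferon production and genes that curb signalling moved too. Ikbke, a kinase that activates IRF factors, rose by 1.11, 2.20 and 1.79 under TNF (1.14 at 6 d with replicate 2), Ddx58 (RIG-I, a sensor of viral RNA) by 1.08, 1.78 and 0.85 (0.66 at 6 d with it), and Sting1, the adaptor of DNA sensing, by 0.72, 1.71 and 1.20 (0.57 at 6 d with replicate 2, not called). Myd88, the adaptor of Toll-like receptors, rose by 1.17 at 2 h of TNF, and Irf2 by 1.34. Tlr3, a receptor for double-stranded RNA, was lower at 24 h (-0.57, adjusted p = 0.0495, limma) and 6 d (-0.67) of Dex. The 24 h call was lost with TNF 6 d replicate 2 in the model. Of 5 tested inhibitors 2 were lower at 2 h of Dex, Socs3 and Socs1 (-1.01 and -0.76), and 2 were higher. The higher 2 were Pias1, with a mean of 8.87 against 8.31 in control, and Ptpn2, with 10.26 against 9.78. At 24 h of TNF 2 inhibitors were higher and none was lower. Socs3 was higher at 6 d of TNF (1.35, and 0.96 with replicate 2, not called). With TNF 6 d replicate 2 in the model 1 tested pathway gene was lower at 2 h of Dex, none at 24 h and 1 at 6 d. Most of the falls named for Irf1, Stat2, Tlr3, Socs1 and Socs3 under Dex are therefore not called in that fit.

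**Figure D4:**
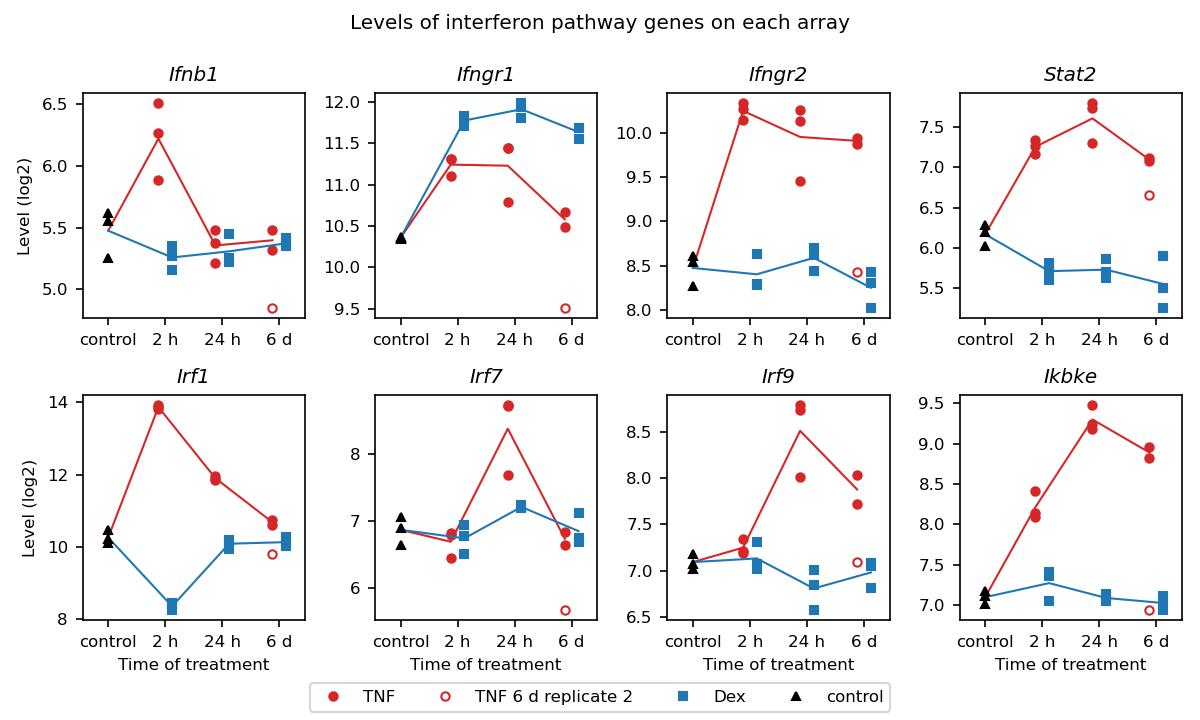
Log2 level on each array of 8 interferon pathway genes that are not members, by time of treatment with TNF (circles) or Dex (squares) beside control (triangles), with TNF 6 d replicate 2 as an open circle left out of the mean lines. Ifnb1 and Irf1 peak at 2 h of TNF, Irf7 and Irf9 at 24 h, and Ifngr1 is highest under Dex.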

How the data were processed

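The deposited values are log2 expression per probe set, made by the authors with RMA per the submitters' processing notes; the version is not given in the sources used here. They were used as deposited. Of 45101 probe sets 34958 had 1 gene symbol in the platform annotation and 932 had several. Symbols were updated through the Entrez identifier, and each gene was read on its probe set with the highest mean over 21 arrays. Genes above 5.34, the median of all values, on at least 3 arrays were tested.

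limma 3.58.1 in R 4.3.3 (trended empirical Bayes) fitted 1 model of 7 groups to 20 arrays, without TNF 6 d replicate 2, for 13 comparisons, with Benjamini-Hochberg adjustment over 12156 genes and a threshold of 0.05. The code was tested on simulated data. The members and gene lists were chosen with earlier results of these data known. Members described in full were the called ones with the largest changes, up to 6 each way against control and 4 otherwise, together with those not called or not tested; pathway genes were Ifnb1, Stat2, Irf1, Irf7 and Irf9 and up to 4 called per comparison. Traf3, Ifnl2, Ifnl3, Plin1, Cfd and Ly6a are not analysed here.

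No 2 arrays held identical values. Same-numbered replicates deviated together, with every correlation above 0.1, for 24 h of Dex set against control (0.233 to 0.447) and for TNF set against Dex at 24 h (0.207 to 0.270), and in no other comparison with 3 pairs. The labels do not say that the numbers mark a shared batch. Alternatives were all 21 arrays, no filter, a filter raised to the 60th percentile of all values, averaging a gene's probe sets, cyclic loess, median centring, no trend, only the compared groups, the replicate block, and leaving out each array. Promoter windows are from RefSeq, GRCm38.p6.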

Additional observations from a re-analysis of the deposited data

Results flagged for a closer look

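The following members were picked out because their level differed between neighbouring times of one treatment, by limma's test of that difference (adjusted p under 0.05). At 24 h against 2 h of TNF the differences on the log2 scale were 4.64 for Oasl2, 3.92 for Zbp1, 3.91 for Rsad2 and 3.52 for Bst2. At 6 d against 24 h of TNF, without TNF 6 d replicate 2, they were -3.44 for Rsad2, -2.51 for Oasl2, -2.43 for Ifit1 and -2.36 for Zbp1. At 24 h against 2 h of Dex they were -2.06 for Iigp1, -1.42 for Ifit1, -1.42 for Ifit3 and -1.38 for Herc6. At 6 d against 24 h of Dex they were 1.17 for Ifi207, 0.99 for Gbp7, 0.56 for Igtp and 0.43 for Gbp2.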

How the results depend on the processing

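With all 21 arrays, members called were 1 at 2 h, 5 at 24 h and 3 at 6 d of Dex against control (5, 21 and 16 on 20 arrays), 10 at 2 h and 16 at 6 d of TNF against control (16 and 30), 3 at 24 h against 2 h of Dex (16) and 1 at 6 d against 24 h of Dex (4). In the comparisons without TNF 6 d the changes are the same in both fits, and only the shared spread differs. Leaving out 1 array at a time gave 3 to 5 called members at 2 h of Dex and 2 to 6 at 6 d against 24 h of Dex; in the other 11 comparisons the count stayed within 1.5 times. The replicate block gave 21 calls for Dex 24 h against control and 38 for TNF against Dex at 24 h, as without it, 6 for Dex at 6 d against 24 h (4 without it), and changed the call of none of the 72 named changes. Of those 72, 21 lost their call with all 21 arrays, 2 with the mean of probe sets, 1 with median centring (Ifit3 at 2 h of Dex, adjusted p = 0.0539, limma) and 2 with only the compared groups; none changed direction under any alternative run. The median change of the members moved by more than the replicate spread in 2 of 13 comparisons with all 21 arrays and in 3 with the mean of probe sets. Leaving out 1 array kept 1418 of 1440 calls. Where calls were lost otherwise, the cause was not tested. Signal near background limits Zbp1, Ifit1 and Oasl2 under Dex and Ifi207, Cmpk2, Mx1, Sp100 and Ifitm1 in control.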
